A study of Mus musculus with 16 samples.

Results

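The genes examined here mark the oligodendrocyte lineage of the mouse brain, from dividing precursors to myelinating cells. The list held 33 genes chosen by symbol for their known roles, with earlier results of these data already known. Of these, 32 were among the 14504 genes in the table of the dorsal raphe nucleus (DRN). The remaining gene, Enpp6, which marks newly formed oligodendrocytes, was not analysed here. By role the 32 comprised 2 precursor genes, 3 lineage transcription factors, 2 genes of maturing cells, 2 factors of myelination, 17 genes of the myelin sheath and its maintenance, and 6 genes of myelin lipids and oligodendrocyte metabolism.

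PolyA RNA of the DRN, the midbrain nucleus with most of the serotonin neurons that project to the forebrain, was sequenced in 16 libraries of adult male C57BL/6 mice (genotype given as C57BL6, with no transgene). Mice were unstressed controls or had been defeated daily by an aggressive CD1 partner for 30 days and were then sorted by behavior into a passive (PS) or an active (AS) coping phenotype. Every animal, controls included, was injected with saline or with 2 mg/kg of dexamethasone (DEX), a synthetic agonist of the glucocorticoid receptor, and tissue was collected 6 h later. The saline and DEX arms had 3 and 3 libraries in controls, 2 and 3 in PS, and 3 and 2 in AS. A library is named by its group and the animal number of its label, as in con_sal_102. Controls were kept singly before the experiment whereas stressed mice lived beside an aggressor, so defeat and housing cannot be told apart. The study had also excluded some DEX-treated stressed animals for low Tph2, a marker of serotonin neurons, and pooling of animals was not described. Its methods describe more DRN libraries than the 16 analysed here, and that exclusion concerned no control or saline library. Why the other libraries are absent was not stated in the sources used here.

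Oligodendrocyte precursors divide in response to platelet-derived growth factor and remain in the adult brain. As they leave the cycle they pass through a premyelinating stage, and the factors SOX10, OLIG1, OLIG2, MYRF and NKX6-2 then drive the genes of the sheath. Mature cells wrap axons in a compacted membrane that is rich in galactolipids and in a few very abundant proteins, couple to astrocytes through gap junctions, and supply axons with metabolites. The midbrain around the raphe is crossed by many myelinated fibers, and a tissue punch holds their oligodendrocytes along with the neurons.

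The libraries held 38207157 (PS_dex_34) to 62447298 (AS_sal_8) reads in the listed genes, and no member had fewer than 130 reads in any library. Values are normalized counts, that is, reads divided by 1 size factor per library. The tissue check, Tph2, the serotonin-synthesizing enzyme, lay between 91764 and 182191 normalized counts and so was high in every library. The study had already excluded libraries with low Tph2, so this level is no independent check of the tissue. The treatment check was Fkbp5, a glucocorticoid receptor chaperone and direct target. It held 1241 to 1536 in the 8 saline libraries and 5578 to 6958 in the 8 DEX libraries. In the DEX effect averaged over phenotypes, 15 of 15 listed glucocorticoid targets rose, against 2.78% of all genes. That list was chosen with earlier results of these data known, so its count is no independent check.

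The first question was how the lineage responded to DEX over all phenotypes. Of the 32 members, 14 fell and 1 rose in the DEX effect averaged over control, PS and AS, at a Benjamini-Hochberg adjusted p under 0.1 over all genes. Of all 14504 genes 1.53% were called lower and 2.78% higher in this contrast. The members were chosen with earlier results of these data known, so these shares only describe the list. The 14 were 8 of 17 genes of the sheath, 4 of 6 of lipids and metabolism, 1 of 2 myelination factors (Nkx6-2) and 1 of 3 lineage factors (Sox10). The gene that rose was the precursor receptor Pdgfra. The median log2 fold change of the members was -0.21, and 25 of 32 lay below zero, against a median of -0.003 and 50.6% below zero over all genes. By role the medians were 0.18 for precursor genes, 0.10 for maturing genes and -0.06 for lineage factors. They were -0.32 for myelination factors, -0.37 for the sheath and -0.69 for lipids and metabolism. Precursor, maturing and myelination factor classes held 2 genes each, at 0.05 and 0.30, -0.15 and 0.35, and -0.72 and 0.08. For 14 further precursor genes and 10 further maturing genes the medians were -0.02 and 0.002. In a bulk sample, fewer cells of a type and less RNA per cell cannot be told apart.

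**Figure D1:**
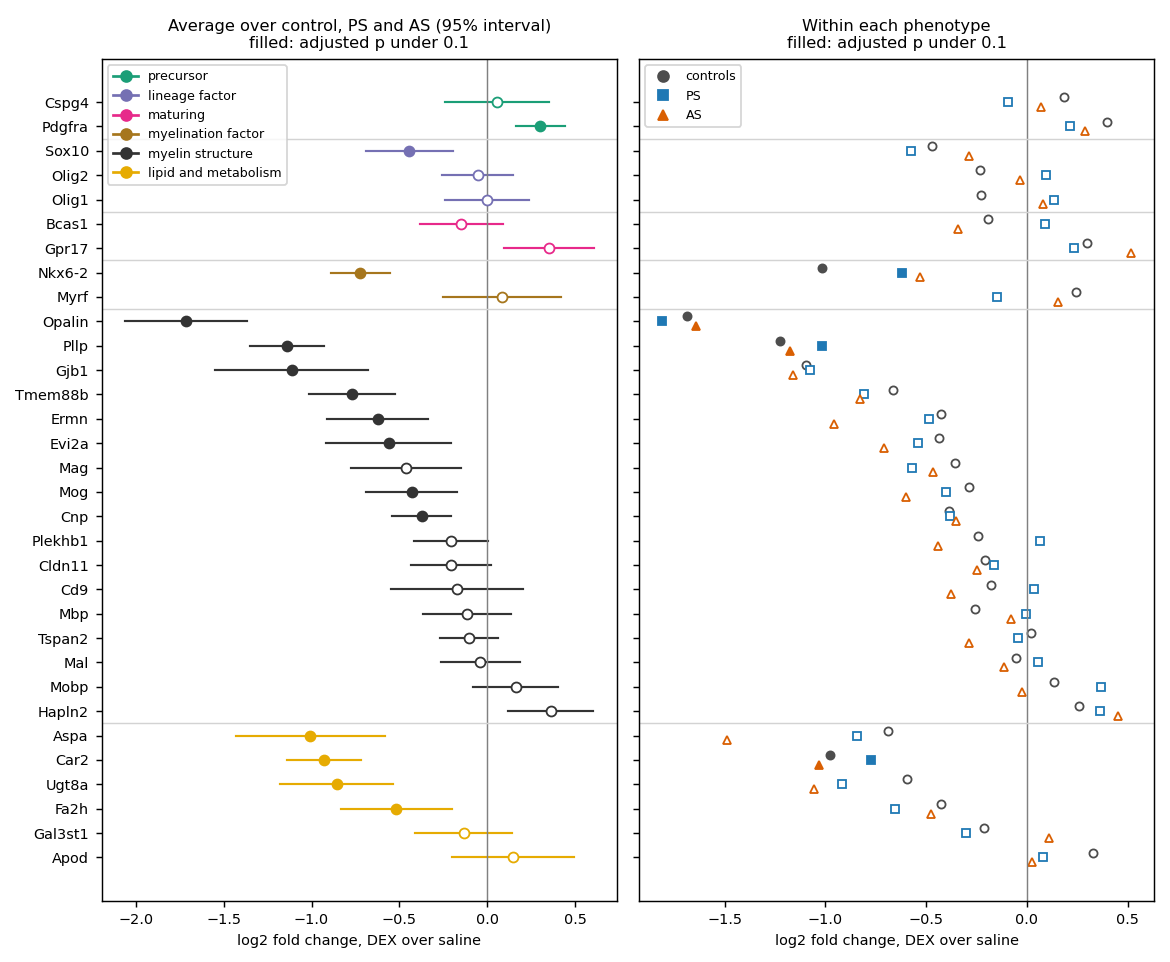
Log2 fold change of DEX over saline for the 32 listed members, ordered by role. The left panel shows the average over control, PS and AS with its 95% interval, and the right panel the effect within each phenotype. Filled symbols mark an adjusted p under 0.1. Opalin, at -1.71, lies lowest, and in the left panel filled symbols below zero are mostly sheath and lipid genes.

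The smallest p-values of all members belonged to Pllp, Opalin, Car2 and Nkx6-2, in that order. Opalin encodes a membrane glycoprotein of mature oligodendrocytes (ENSMUSG00000050121.9, GRCm38 chromosome 19, 41061710 to 41077113, minus strand). Opalin held 997, 726 and 883 normalized counts in the control saline libraries, 592 and 880.2 in PS saline and 688, 657 and 1053 in AS saline, and 306, 277 and 225 in control DEX, 225, 279 and 137 in PS DEX and 253 and 247 in AS DEX. Every DEX library lay below every saline library, from 137 to 306 after DEX against 592 to 1053 after saline. The log2 fold change was -1.71 (SE 0.16, adjusted p = 2.21e-05), or 0.305 times the saline level.

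Pllp encodes plasmolipin, a proteolipid with several membrane passes that is enriched in myelin (ENSMUSG00000031775.5, GRCm38 chromosome 8, 94674894 to 94696278, minus strand). Pllp held 2378, 1974 and 1859.7 normalized counts in the control saline libraries, 1569.7 and 1787 in PS saline and 2168, 1686 and 1973 in AS saline, and 1009.6, 934 and 722 in control DEX, 881, 947 and 677 in PS DEX and 878 and 831 in AS DEX. No DEX library reached the lowest saline library, which was PS_sal_62. The change was -1.14 (SE 0.10, adjusted p = 1.03e-05). Car2, a carbonic anhydrase of oligodendrocytes that handles bicarbonate (ENSMUSG00000027562.12, GRCm38 chromosome 3, 14886273 to 14900770, plus strand), was also separated. Car2 held 5270.5, 4545 and 4105 normalized counts in the control saline libraries, 3239 and 4225 in PS saline and 4302, 3836 and 4621 in AS saline, and 2363, 2824 and 1919.7 in control DEX, 1979.6, 2529 and 2011 in PS DEX and 2214 and 1936 in AS DEX. All 8 DEX libraries stayed under all 8 saline libraries. The change was -0.93 (SE 0.10, adjusted p = 5.37e-05).

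Nkx6-2 encodes a homeodomain factor of maturing oligodendrocytes (ENSMUSG00000041309.17, GRCm38 chromosome 7, 139579376 to 139582797, minus strand). Nkx6-2 held 1480.1, 1847 and 1666 normalized counts in the control saline libraries, 1154 and 1118 in PS saline and 1366, 1426 and 1576 in AS saline, and 855, 858 and 749 in control DEX, 714, 695 and 808 in PS DEX and 1165 and 871 in AS DEX. The arms were separate within each phenotype but met across phenotypes, because AS_dex_38 lay just above both PS saline libraries. The change was -0.72 (SE 0.08, adjusted p = 7.93e-05). Of the 32 members, 4 (Opalin, Pllp, Car2 and Tmem88b) had every DEX library below every saline library, which held for 0.510% of all genes. None had every DEX library above, which held for 1.37%. Separation within a single phenotype rests on 2 or 3 libraries per arm, and its share over all genes was not counted. Here and below it is given only as a description of the values. Nkx6-2 lies opposite to Inpp5a in the annotation, and whether counting used the strand was not stated, so its level is uncertain. The study reports high strand specificity of its libraries, but not the counting setting. Pllp, Ermn, Pdgfra, Olig1, Bcas1, Mog, Tspan2 and Cd9 also lie opposite to annotated genes, none of them listed in these data.

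**Figure D2:**
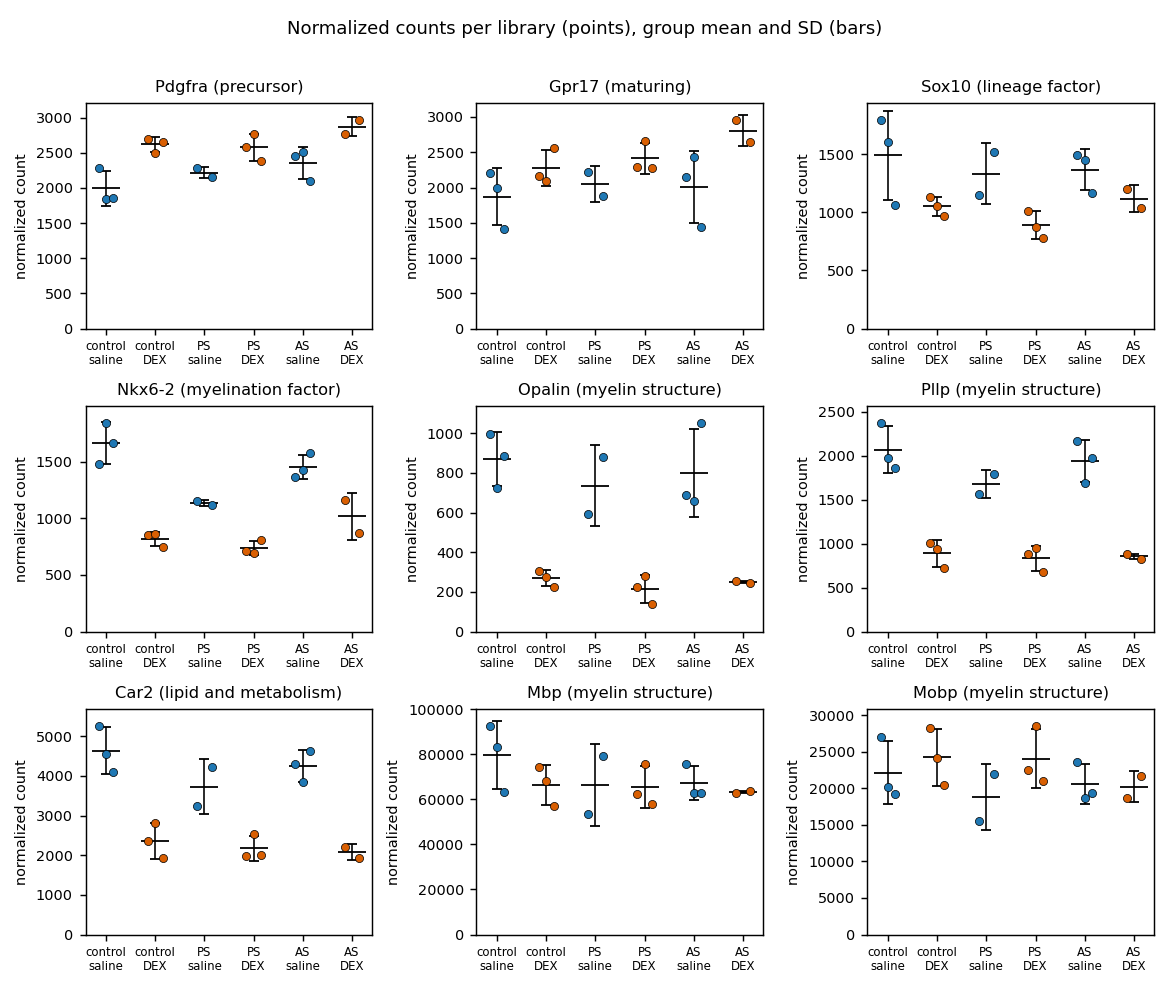
Normalized counts of 9 members in each library (points, blue for saline and orange for DEX) with group mean and SD (bars, 2 or 3 libraries per group). Opalin, Pllp and Car2 are separated between the arms in all 3 phenotypes, whereas Mbp and Mobp overlap.

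The promoters of Pllp, Opalin and Nkx6-2, from 250 bases before to 50 bases after the start site, are shown because these members had the smallest p-values among those with a window in the RefSeq table (GRCm38.p6). They lie at chr8:94696193-94696492, chr19:41077064-41077363 and chr7:139582748-139583047, all on the minus strand, and are written 5′ to 3′ along the gene. Capitals mark a match to CTGGNAC, the motif bound by MYRF, on either strand.
Pllp: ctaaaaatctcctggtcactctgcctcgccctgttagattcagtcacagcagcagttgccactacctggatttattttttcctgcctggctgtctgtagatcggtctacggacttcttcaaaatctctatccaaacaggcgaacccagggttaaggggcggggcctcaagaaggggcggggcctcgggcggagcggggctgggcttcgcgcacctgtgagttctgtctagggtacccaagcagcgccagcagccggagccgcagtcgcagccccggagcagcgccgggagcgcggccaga
Opalin: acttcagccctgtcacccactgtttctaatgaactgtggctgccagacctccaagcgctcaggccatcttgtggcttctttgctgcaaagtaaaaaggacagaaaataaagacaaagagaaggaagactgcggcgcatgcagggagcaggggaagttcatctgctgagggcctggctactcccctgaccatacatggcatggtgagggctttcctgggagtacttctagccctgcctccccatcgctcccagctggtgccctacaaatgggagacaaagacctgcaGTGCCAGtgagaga
Nkx6-2: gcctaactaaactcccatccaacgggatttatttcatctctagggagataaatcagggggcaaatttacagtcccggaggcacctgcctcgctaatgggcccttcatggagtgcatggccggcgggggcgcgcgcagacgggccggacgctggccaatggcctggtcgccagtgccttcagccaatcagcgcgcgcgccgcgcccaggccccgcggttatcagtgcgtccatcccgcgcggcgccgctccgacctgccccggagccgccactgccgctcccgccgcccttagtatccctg
The single match lies in Opalin, on the reverse strand, with its first base 37 bases after the start site. A window was found for 23 of the 32 members, 5 of them with more than 1. With the first window of each gene alone, CTGGNAC occurred in 7 of these 23 and in 17.9% of the 10282 listed genes with a window, and AACAANG, the motif of SOX factors, in 7 of 23 and 9.37%. With every window of a gene counted, the MYRF motif occurred in 9 of 23 and 21.0% of genes, and the SOX motif in 7 of 23 and 11.5%. Among the 10 members with a window that were called lower, the MYRF motif occurred in 3 by the first window and 4 by any, and the SOX motif in 2 by either. The palindromic glucocorticoid response element, searched as a whole on both strands, matched none of the members by either count and 0.0486% of genes by the first window. Such matches describe letters in a short window and say nothing of binding.

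Of the remaining sheath genes, Tmem88b, Gjb1, Ermn and Cnp fell as well. Tmem88b encodes a transmembrane protein found in oligodendrocytes. Tmem88b held 3331, 2199 and 2586 normalized counts in the control saline libraries, 2015 and 2949 in PS saline and 2904, 2121 and 2345 in AS saline, and 1690.4, 1975 and 1427 in control DEX, 1456, 1467 and 1254 in PS DEX and 1479 and 1268 in AS DEX. Its arms did not overlap, with a highest DEX value of 1975 against a lowest saline value of 2015. The change was -0.77 (SE 0.11, adjusted p = 0.00116). Gjb1 encodes a connexin of the gap junctions in noncompact myelin. Gjb1 held 574, 548 and 455 normalized counts in the control saline libraries, 318 and 442 in PS saline and 521, 294 and 554 in AS saline, and 230.0, 406 and 155 in control DEX, 176, 212 and 150.0 in PS DEX and 239 and 160.3 in AS DEX. Only con_dex_116 stood inside the saline range, and 7 of 8 DEX libraries lay below its lowest value. The change was -1.11 (SE 0.20, adjusted p = 0.00561).

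Ermn encodes ermin, a cytoskeletal protein of late oligodendrocyte processes. Ermn held 1770.4, 1288 and 1746 normalized counts in the control saline libraries, 1091 and 1653 in PS saline and 1682, 1357 and 2089.5 in AS saline, and 1191, 1541 and 889 in control DEX, 930.1, 1036 and 909.7 in PS DEX and 864 and 869 in AS DEX. In PS and AS the arms were separate, and in controls con_dex_116 lay above con_sal_104. The change was -0.62 (SE 0.13, adjusted p = 0.0167). Cnp encodes a phosphodiesterase of cyclic nucleotides that keeps cytoplasmic channels in myelin open. Cnp held 14105, 13761 and 12066 normalized counts in the control saline libraries, 10846 and 13006 in PS saline and 13261, 11925 and 14361 in AS saline, and 10491, 10907 and 9171 in control DEX, 9133, 10616 and 7820.0 in PS DEX and 10759 and 9853 in AS DEX. The arms were separate within each phenotype, and con_dex_116 narrowly passed PS_sal_62. The change was -0.37 (SE 0.08, adjusted p = 0.0141), the smallest in size of the 14. Cnp lies opposite to Dnajc7, with the same limit of strand as Nkx6-2.

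Among lipid and metabolic genes, Ugt8a and Aspa fell beside Car2. Ugt8a transfers galactose to ceramide, the step that makes the galactolipids of myelin. Ugt8a held 1799, 1339.9 and 1971 normalized counts in the control saline libraries, 1281 and 1981 in PS saline and 2004, 1428 and 1891 in AS saline, and 1064, 1526 and 847 in control DEX, 834, 1056 and 683 in PS DEX and 904 and 787 in AS DEX. Of the 8 DEX libraries 7 lay below the lowest saline value, and con_dex_116 exceeded it. The change was -0.86 (SE 0.15, adjusted p = 0.00406). Aspa splits N-acetylaspartate into acetate, which feeds lipid synthesis, and aspartate. Aspa held 859, 426 and 879 normalized counts in the control saline libraries, 499 and 874 in PS saline and 759, 622 and 913 in AS saline, and 346, 590.5 and 373 in control DEX, 374, 359 and 369 in PS DEX and 359.6 and 201 in AS DEX. Its saline libraries spread widely, with con_sal_104 lowest, and AS_dex_42 was the lowest of all. The change was -1.01 (SE 0.20, adjusted p = 0.00921).

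The calls of Sox10, Mog, Fa2h and Evi2a were the least secure of the 14. Sox10 is a transcription factor needed along the whole lineage. Sox10 held 1797, 1606 and 1065 normalized counts in the control saline libraries, 1145 and 1517 in PS saline and 1491, 1446 and 1163 in AS saline, and 1134, 1050.0 and 972 in control DEX, 1014, 876 and 779.8 in PS DEX and 1198 and 1036 in AS DEX. In PS the arms were separate, whereas in controls and AS they overlapped. The change was -0.44 (SE 0.11, adjusted p = 0.0549), and the call held in 9 of 16 fits that left out 1 library. Mog encodes a glycoprotein of the outermost myelin surface. Mog held 2082, 1634 and 1881 normalized counts in the control saline libraries, 1427 and 1970.1 in PS saline and 1930.1, 1510.0 and 2177 in AS saline, and 1510.3, 1873 and 1245 in control DEX, 1359, 1480.3 and 1018 in PS DEX and 1323 and 1125 in AS DEX. The arms were separate in AS alone. The change was -0.43 (SE 0.12, adjusted p = 0.0820), called in 5 of 16 such fits. Fa2h, which hydroxylates the fatty acids of myelin lipids, and Evi2a, a transmembrane protein gene in an intron of Nf1, changed by -0.52 (SE 0.15, adjusted p = 0.0873) and -0.56 (SE 0.17, adjusted p = 0.0998), each called in 4 of 16. Evi2a lies opposite to Nf1, so its level is uncertain as well. The other 10 members called lower kept the call in all 16. Mag, an adhesion protein of the inner myelin surface, did not pass the test. Mag held 9393, 5778 and 6474 normalized counts in the control saline libraries, 5425 and 8023 in PS saline and 7579, 5793 and 7932 in AS saline, and 5708, 6815 and 4312 in control DEX, 5003, 5331 and 3292 in PS DEX and 5408 and 4791 in AS DEX. The arms were separate in PS and AS and overlapped in controls, and the estimate was -0.46 (SE 0.15, adjusted p = 0.136). Of the alternative fits to all libraries, DESeq2, library weights and the serotonin neuron and ependymal covariates called Mag lower, and the rest did not.

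Of the precursor and maturing genes, 1 of 4 was called. Pdgfra, the growth factor receptor of precursors (ENSMUSG00000029231.15, GRCm38 chromosome 5, 75152292 to 75198215, plus strand), rose. Pdgfra held 2285, 1841 and 1862 normalized counts in the control saline libraries, 2278 and 2159 in PS saline and 2449.8, 2513 and 2099 in AS saline, and 2700.0, 2501 and 2659 in control DEX, 2589, 2762 and 2381 in PS DEX and 2774 and 2972 in AS DEX. The DEX libraries were above the saline libraries within each phenotype, and 6 of 8 exceeded the highest saline library of all. The change was 0.30 (SE 0.06, adjusted p = 0.0171), the call held in all 16 fits that left out 1 library, and it was the only member called higher. Cspg4, which encodes the main surface proteoglycan of precursors, did not pass the test. Cspg4 held 1295, 563 and 1002 normalized counts in the control saline libraries, 1049.7 and 1154 in PS saline and 1089, 1292 and 1008 in AS saline, and 1021, 1053 and 1001 in control DEX, 1133, 987 and 981 in PS DEX and 1269.9 and 1099 in AS DEX. Apart from a low value in con_sal_104 the groups overlapped, and the estimate was 0.05 (SE 0.14, adjusted p = 0.874).

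Gpr17 encodes a receptor of premyelinating cells. Gpr17 held 2201, 1998 and 1418 normalized counts in the control saline libraries, 2226 and 1874 in PS saline and 2149, 2427 and 1439 in AS saline, and 2166, 2089.8 and 2561 in control DEX, 2288, 2666 and 2283 in PS DEX and 2963 and 2649 in AS DEX. The DEX libraries were above the saline ones in PS and AS but not in controls. Its estimate of 0.35 (SE 0.12, adjusted p = 0.170) missed the threshold. Of the alternative fits to all libraries, those with library weights and with the neuron covariate called it higher, and the rest did not. Gpr17 lies opposite to Lims2, so its level is also uncertain. Bcas1 marks early myelinating cells. Bcas1 held 8171, 6499 and 5311 normalized counts in the control saline libraries, 4218 and 6379 in PS saline and 6251, 5181 and 6488 in AS saline, and 6006, 6353 and 4940.0 in control DEX, 5067, 6411 and 5201 in PS DEX and 4796 and 4577 in AS DEX. Only in AS were the arms separate, with DEX lower, and the estimate was -0.15 (SE 0.11, adjusted p = 0.549).

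Among the transcription factors, Olig1 and Olig2, basic helix-loop-helix factors of the whole lineage, and Myrf, the factor that switches on sheath genes, gave no call. Olig1 held 5678, 5065 and 3566 normalized counts in the control saline libraries, 3465 and 4021 in PS saline and 4595, 4389 and 3390.1 in AS saline, and 4804, 3822 and 3472 in control DEX, 4407, 4497 and 3490.0 in PS DEX and 4345 and 4307 in AS DEX. Olig2 held 1583, 1216 and 1014 normalized counts in the control saline libraries, 952 and 1086 in PS saline and 1292, 1256 and 990.3 in AS saline, and 1128, 1035 and 1034 in control DEX, 1112, 1151 and 1004 in PS DEX and 1216 and 1079 in AS DEX. Both were highest in con_sal_102, and the arms overlapped in every phenotype. Myrf held 2973, 1407 and 1586 normalized counts in the control saline libraries, 2016 and 2739.9 in PS saline and 2644, 2247 and 1566 in AS saline, and 2533, 2023 and 2145 in control DEX, 2347, 2258 and 1793 in PS DEX and 2243 and 2439 in AS DEX. The control saline libraries of Myrf spanned more than the DEX libraries of all phenotypes together. The estimates were -0.003 (SE 0.11, adjusted p = 0.990) for Olig1, -0.06 (SE 0.09, adjusted p = 0.807) for Olig2 and 0.08 (SE 0.16, adjusted p = 0.829) for Myrf. Their 95% intervals were -0.24 to 0.23, -0.26 to 0.15 and -0.25 to 0.42.

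The abundant structural transcripts of compact myelin did not pass the test either. Mbp encodes the basic protein that holds the cytoplasmic faces of the membrane together. Mbp held 92692, 83352 and 63235 normalized counts in the control saline libraries, 53629 and 79246 in PS saline and 75768, 62619 and 62712 in AS saline, and 74128, 67937 and 56862 in control DEX, 62242, 75835 and 57979 in PS DEX and 62949 and 63570.3 in AS DEX. The arms overlapped in each phenotype, and the control saline libraries alone spread more widely than all DEX libraries. The estimate was -0.11 (SE 0.12, adjusted p = 0.667), with a 95% interval of -0.36 to 0.14 that does not reach the estimates of Opalin or Pllp. Mobp, a second basic protein of compact myelin, had 0.16 (SE 0.11, adjusted p = 0.530), Mal, a proteolipid of lipid rafts, -0.04 (SE 0.11, adjusted p = 0.884), and the tight junction gene Cldn11 -0.21 (SE 0.10, adjusted p = 0.397). The tetraspanin genes Tspan2 and Cd9 had -0.10 (SE 0.08, adjusted p = 0.547) and -0.17 (SE 0.18, adjusted p = 0.667). Estimates were -0.21 (SE 0.10, adjusted p = 0.361) for Plekhb1, -0.14 (SE 0.13, adjusted p = 0.640) for Gal3st1, the enzyme that makes sulfatide, and 0.15 (SE 0.16, adjusted p = 0.688) for Apod, a lipid carrier. Hapln2, a hyaluronan link protein at nodes of Ranvier, had an estimate of 0.36 (SE 0.11, adjusted p = 0.127) and was not called. Of the alternative fits to all libraries, DESeq2, library weights, the neuron covariate and the Mbp covariate called it higher, and the rest did not.

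Taking Mbp as the unit within each library separated some members from others. For each 1000 normalized counts of Mbp, Opalin held 8.71 to 16.8 in saline and 2.37 to 4.12 in DEX libraries. For Pllp the ranges were 22.6 to 31.5 and 11.7 to 14.2, and for Car2 53.3 to 73.7 and 30.5 to 41.6. None of these ranges overlapped, but Opalin, Pllp and Car2 had the smallest p-values of the members and were already separate before division. How many of all genes would separate by such a ratio was not counted. For Mobp they were 242 to 312 and 297 to 381, with AS_dex_38 the one DEX library under the highest saline library. With the log2 level of Mbp as a covariate, chosen after the data were seen, 11 members fell and the calls of Mog, Fa2h and Evi2a were lost. Under that covariate Opalin changed by -1.63 and Pllp by -1.06. Mbp lies opposite to the pseudogene Rpl21-ps8, so its level carries the same limit of strand as Nkx6-2. A ratio shows unequal change among transcripts, not that Mbp itself stayed constant.

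**Figure D3:**
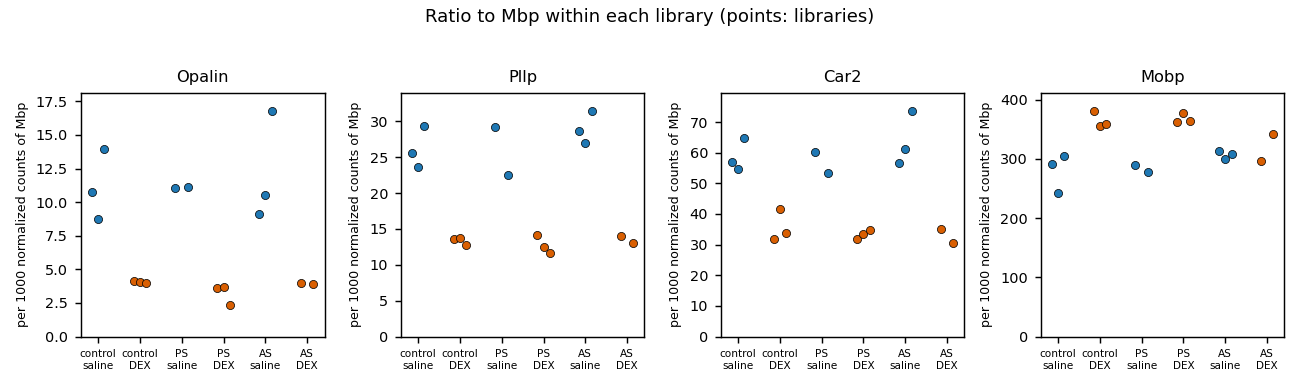
Normalized counts of Opalin, Pllp, Car2 and Mobp per 1000 normalized counts of Mbp in each library (points, blue for saline and orange for DEX, by phenotype). Opalin falls between 8.71 and 16.8 after saline and between 2.37 and 4.12 after DEX.

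The next question was whether the phenotypes differed in this response. Within controls 4 members were lower after DEX and 0 higher, against 0.262% and 1.0% of all genes. The 4 were Nkx6-2 at -1.02 (SE 0.13, adjusted p = 0.00103), Pllp at -1.23 (SE 0.16, adjusted p = 0.00125), Opalin at -1.69 (SE 0.26, adjusted p = 0.00532) and Car2 at -0.98 (SE 0.16, adjusted p = 0.00735). In PS these 4 genes were again called, with 0.124% of all genes lower and 0.579% higher. Their values were -1.81 (SE 0.29, adjusted p = 0.0116) for Opalin, -1.02 (SE 0.18, adjusted p = 0.0202) for Pllp, -0.78 (SE 0.17, adjusted p = 0.0882) for Car2 and -0.62 (SE 0.14, adjusted p = 0.0935) for Nkx6-2. In AS 3 were called, with 0.152% of all genes lower and 0.538% higher. Fitting only the groups compared left 1 call in PS and 0 in AS, whereas DESeq2 and library weights each gave 6 in PS and 9 in AS. The AS calls were Pllp at -1.18 (SE 0.18, adjusted p = 0.00737), Car2 at -1.03 (SE 0.17, adjusted p = 0.0152) and Opalin at -1.64 (SE 0.29, adjusted p = 0.0202). All 14 members called lower in the average had estimates below zero in each phenotype. The average is the equal mean of these phenotype estimates, so this agreement in sign was largely set by the selection.

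The PS and AS counts rested on single libraries. Without PS_sal_68 no member was called in PS, where Opalin still measured -1.52 (adjusted p = 0.276). Without AS_dex_42 none was called in AS, where Opalin measured -1.63 (adjusted p = 0.331). Either omission leaves 1 library in its arm, which is then assumed to vary like the other groups. Without PS_sal_62, PS_dex_6, PS_dex_34, PS_dex_64, con_dex_101, AS_sal_8 or AS_sal_14 the PS count was 2. Without AS_dex_38 the call of Opalin in AS was lost (adjusted p = 0.163).

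No member passed the test of a difference in DEX effect between phenotypes, nor did any gene (0% in each of the 3 interactions). Over all genes 304, 583 and 421 had an unadjusted p under 0.05 for PS against control, AS against control and AS against PS. Nkx6-2 was the one member among them, with a response in AS that differed from controls by 0.49 (SE 0.19, unadjusted p = 0.0225, adjusted p = 0.941). For Opalin the difference was -0.12 between PS and controls (95% interval -0.96 to 0.71) and 0.04 between AS and controls (-0.79 to 0.88). For Pllp the intervals were -0.30 to 0.72 and -0.46 to 0.56. With 2 or 3 libraries per group, differences of that size between phenotypes could not be resolved. For Aspa the estimate was -0.80 between AS and controls (-1.81 to 0.22).

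Chronic stress itself was then compared under saline. No member passed the test between PS and control, AS and control, or AS and PS, and neither did any other gene (0% called in each), while 1112, 347 and 494 genes had an unadjusted p under 0.05. In PS against control, 27 of 32 members lay below zero, with a median of -0.16, against 49.0% of all genes and a median of 0.007. All 17 sheath genes were below zero there, at -0.58 to -0.10, and both precursor genes above. The PS arm had 2 libraries, of which PS_sal_62 was the lowest saline library of all for 19 members, and without it the median member turned to 0.0199. The median was -0.40 without PS_sal_68, -0.27 without con_sal_104 and -0.0877 without con_sal_102. In AS against control 21 of 32 lay below zero and the median was -0.05, which turned to 0.0668 without con_sal_102, 0.0202 without AS_sal_14, 0.0149 with the ependymal covariate and 0.11 with the Mbp covariate. It was -0.11 without con_sal_104, -0.10 without AS_sal_8 and -0.0958 without con_sal_114. No direction of the members as a group therefore held over these fits. Both contrasts share the control libraries.

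Nkx6-2 had the smallest unadjusted p of the members in PS against control, -0.54 (SE 0.14, unadjusted p = 0.00180, adjusted p = 0.571). Its PS saline values of 1154 and 1118 lay below all 3 control and all 3 AS saline values, and AS exceeded PS by 0.36 (unadjusted p = 0.0251). Plekhb1, which encodes a membrane-binding protein, exceeded PS in AS by 0.42 (unadjusted p = 0.0329). AS_sal_40 stood apart at 17925 normalized counts, with 12652 and 12902 in the other AS saline libraries. The PS saline values were 9644 (PS_sal_62) and 11918. None of these limma tests of Nkx6-2 and Plekhb1 passed adjustment. Pdgfra measured 0.24 in AS against control (unadjusted p = 0.0358, adjusted p = 0.998).

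Under DEX no member passed the test between phenotypes. Of all genes 0% were called in PS against control, 0.00689% (1 gene) in AS against control and 0% in AS against PS, with 178, 508 and 247 at an unadjusted p under 0.05. The members with an unadjusted p under 0.05 were Evi2a in PS against control, at -0.68 (SE 0.26), and Nkx6-2 in AS against PS, at 0.45 (SE 0.14), both with an adjusted limma p of 1.0. By edgeR and by DESeq2 no member was called in any stress or interaction contrast either. The median member lay at -0.13 in PS and -0.0933 in AS against control, and the neuron covariate turned these to 0.0105 and 0.0358. In PS it was -0.0352 without PS_dex_64 and -0.23 without con_dex_122. In AS it was -0.0276 without AS_dex_42, -0.0214 without con_dex_101, -0.0185 without con_dex_116 and -0.20 without con_dex_122.

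**Figure D4:**
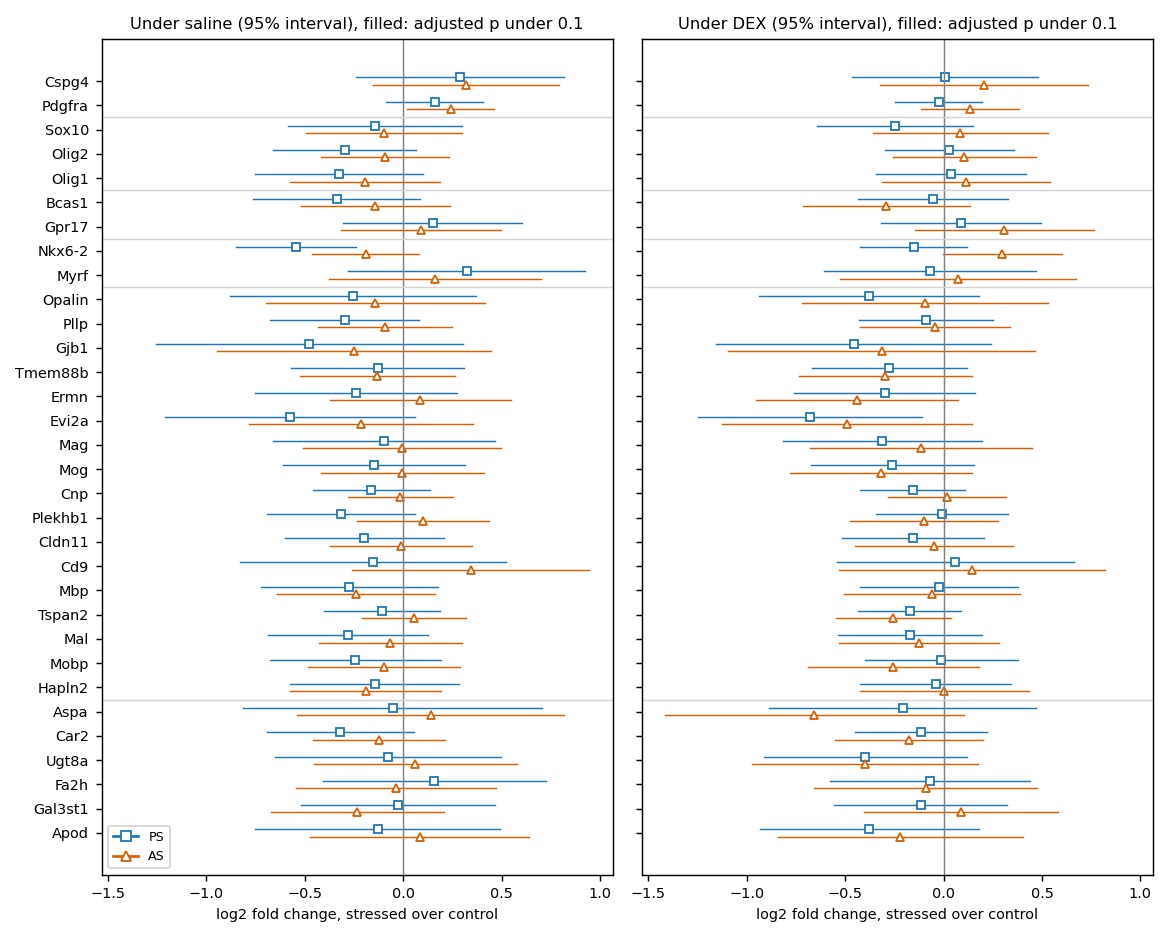
Log2 fold change of PS (squares) and AS (triangles) over control under saline (left) and under DEX (right) with 95% intervals for the 32 listed members, ordered by role. No symbol is filled, since no adjusted p was under 0.1. Under saline all 17 sheath genes of PS lie left of zero, between -0.58 and -0.10, with PS_sal_62 included.

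Saline libraries differed from each other along the whole lineage. Over the saline libraries of all phenotypes the highest exceeded the lowest by 1.32 (Cnp) to 2.30 (Cspg4) times. This spread includes any difference between phenotypes as well as that between animals of a group. The highest saline library was con_sal_102 for 17 members and AS_sal_40 for 9. A class score, the mean log2 deviation of the class from each gene's mean, gave 0.48 for the sheath genes in con_sal_102 and -0.14 in PS_sal_62. Sheath scores ran from -0.14 to 0.48 in saline and from -0.53 to 0.10 in DEX libraries, and lipid scores from -0.04 to 0.58 and from -0.58 to 0.09. Both overlapped, with con_dex_116 the highest DEX library. Precursor scores of -0.64 to 0.18 and -0.05 to 0.24 overlapped more, with con_sal_104 far below the others. Without con_sal_102 and con_sal_104, a choice made after the data were seen, 10 members fell and 2 rose in the average, and Sox10, Mog, Fa2h and Evi2a were lost.

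**Figure D5:**
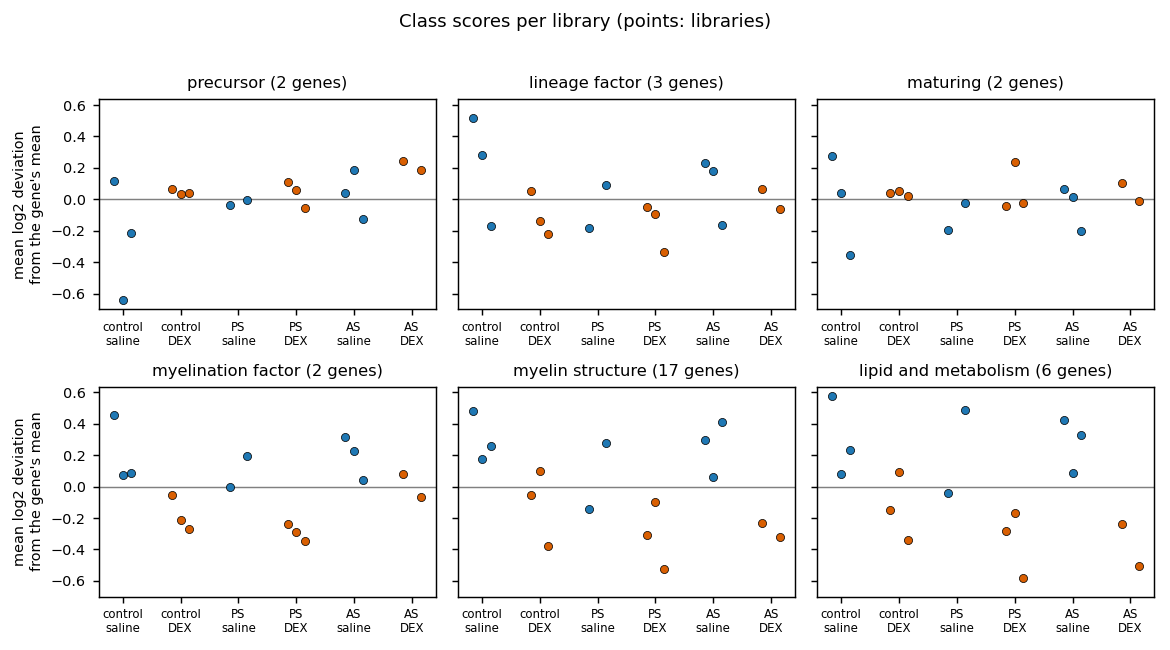
Class scores per library, as the mean over a class of the log2 deviation from each gene's mean over all libraries (points, blue for saline and orange for DEX, by phenotype). Sheath and lipid scores are mostly above zero after saline and below zero after DEX, with overlap through PS_sal_62 and con_dex_116.

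Other genes of the lineage, which were not members, were counted in the same way. Their lists were also chosen with earlier results of these data known. Over all genes, 1.53% were called lower and 2.78% higher in the average. Of 53 listed further myelin genes 18 fell and 2 rose in the average, with a median of -0.22. Of 14 further precursor genes 4 rose and 1 fell, with a median of -0.02, and of 10 listed genes of maturing cells 2 rose and 0 fell, with a median of 0.002. Among those with the smallest p, Gpr37, a receptor of mature cells (-0.67, adjusted p = 0.000507), and Ninj2 (-1.19, 0.00266) fell. Neu4, a sialidase (0.65, 0.00042), Itpr2, a calcium channel of newly formed cells (0.58, 0.00121), and Ptgds, a prostaglandin synthase that is also made by meninges (0.71, 0.00182), rose. The Gpr37 libraries spanned 2466 to 3629.9 normalized counts after saline and 1616 to 2227 after DEX, without overlap. Every DEX library lay below every saline library for 0.510% of all genes.

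Markers of other cells were measured in the same contrast, in which 1.53% of all genes were called lower and 2.78% higher. Of 14 microglia genes 4 fell and 0 rose, with a median of -0.33, and their summed level was 10795 to 17069 in saline and 9590 to 11605 in DEX libraries. Their mean scores did not overlap, at -0.007 to 0.63 and -0.33 to -0.04. How many other sets of 14 genes would separate in this way was not counted. Of 14 astrocyte genes 2 rose and 1 fell (median 0.005), of 10 listed endothelial genes 1 fell (-0.10), of 12 serotonin neuron genes 1 fell (-0.06), and of 12 general neuron and 13 ependymal cilia genes none passed the test (-0.10 and 0.03). Astrocyte sums of 152986 to 186236 and 164581 to 177606 and neuron sums of 300344 to 389203 and 302434 to 377359 overlapped between the arms. Ependymal sums varied the most, from 2321 in PS_dex_6 to 25837 in PS_dex_64. No listed marker was at 0 in any library. Of 7 Schwann cell genes 2 were listed, and neither passed the test. The part of these cells in the member values was not tested beyond the fits with serotonin neuron, neuron or ependymal scores as a covariate, under which 14, 13 and 15 members fell.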

How the data were processed

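RNA-seq of the DRN was analysed in 16 libraries, grouped by phenotype and treatment from the labels. According to the methods and processing notes, the authors trimmed reads with fastp 0.20.1, aligned them to mm10 with HISAT2 2.2.1, counted them per gene with featureCounts (Subread 2.0) and normalized with DESeq2 1.36.0. The strand setting of counting was not given in the sources used here. The values deposited by the authors are a signal, normalized counts per gene, that is, reads divided by a size factor. The deposited comparison tables hold the authors' own log2 fold changes and p-values and were not used.

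Whole reads could be recovered for 100% of values within a tolerance of 0.001 reads (a fixed small fraction of the value for high counts). This gave 38207157 to 62447298 reads per library. Counting error was not compared with the spread between animals. Normalized counts were transformed to log2(value + 1), on which scale all fold changes are given, and fitted with limma 3.58.1 in R 4.3.3. The fit had 1 mean per group over all 16 libraries and a variance trend, with Benjamini-Hochberg adjustment over 14504 genes and a call at adjusted p under 0.1. The average DEX effect weights control, PS and AS equally. Intervals are at 95%. The fit was tested on simulated counts, drawn independently for each gene with the same dispersion. These held no shift shared by the genes of a library beyond its size factor, so that test does not cover such shifts. edgeR 4.0.16 and DESeq2 1.42.0 on the recovered reads, other scalings, pseudocounts and filters, marker scores as covariates and leaving out each library were alternatives. Gene coordinates came from a GENCODE annotation of GRCm38 and promoters from RefSeq.

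The members and lists were chosen with earlier results of these data known. Values per library are given for 12 genes fixed by role, of which Enpp6 was not analysed here, for up to 12 called members with the smallest p in the average and up to 5 in each other comparison. Up to 6 called lineage genes outside the list were to be named, of which 1 is not reported here, and promoters are shown for up to 3 members.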

Additional observations from a re-analysis of the deposited data

How the results depend on the processing

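Over the alternatives, 514 of 543 recomputed counts of called members stayed within 1.5 times the reported count and 29 did not. In the average DEX effect the count lower ran from 10 to 14 when 1 library was left out, and the count higher from 1 to 2. The count higher was 3 with library weights, 3 with the neuron covariate, 3 with the Mbp covariate, 2 by DESeq2 and 2 without con_sal_102 and con_sal_104. In controls, 2 were lower without these libraries, and 1 was higher by DESeq2 (0 to 1 when 1 library was left out). In PS, 1 was lower when only the groups compared were fitted and 2 with the neuron covariate, and 1 was higher with library weights. Leaving out 1 library gave 0 to 4. In AS, 9 were lower with library weights, 9 by DESeq2, 7 with the serotonin neuron covariate and 0 when only the groups compared were fitted, and 1 was higher with library weights. Leaving out 1 library gave 0 to 4. The causes were not tested.

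Of 1380 recomputed single gene values 27 changed sign, none of them of a called member. In the average, Cspg4 gave -0.0651 with library weights, -0.0575 with the serotonin neuron covariate, -0.0894 with the length trend removed and -0.0581 to 0.14 when 1 library was left out. Olig1 gave 0.0529 with the neuron covariate, 0.0323 with the length trend removed, 0.0938 with the Mbp covariate, 0.13 without con_sal_102 and con_sal_104, and -0.0689 to 0.0430 when 1 library was left out. Olig2 gave 0.0131, 0.0447 and -0.11 to 0.00119 for the last 3 of these. Myrf gave -0.0521 with the serotonin neuron covariate. Mal gave 0.0520 with library weights, 0.0434 with the Mbp covariate and -0.11 to 0.0299 when 1 library was left out. Gal3st1 gave 0.0135 without con_sal_102 and con_sal_104. No paired analysis was possible because the animal numbers differ between the groups. With 2 or 3 libraries per group, small effects of stress were not resolved.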
